A study of Homo sapiens with 32 samples.

Results

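The subunits of Polycomb repressive complex 1 (PRC1) were followed through every arm of an RNA-seq study of Ewing sarcoma cells that lack a cohesin subunit or a subunit of Polycomb repressive complex 2 (PRC2). The 9 members are CBX2, CBX6, CBX7, CBX8, BMI1, PCGF2, RING1, RNF2 and PHC1. They were chosen by name as a set of PRC1 genes, and each was found by its symbol among 28278 gene symbols in the count tables and by its Ensembl gene among 60199 genes in the knockdown table. The 9 passed the filter on low values in every comparison.

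The study asked what loss of the cohesin subunit STAG2 changes in Ewing sarcoma, a tumour driven by the fusion EWS::FLI1, and how this compares with loss of STAG1, of EZH2 or of SUZ12. The cell line A673 was edited with CRISPR/Cas9, and every KO clone descends from 1 clone that carries an inducible Cas9 at the AAVS1 locus (genotype iCas9, the WT clone). Its controls were libraries of that WT clone and of the parental A673 line (genotype WT). Experiment 1 held 3 controls and 2 STAG2 KO libraries, experiment 2 held 3 controls and 3 libraries each of STAG2, EZH2 and SUZ12 KO, and experiment 3 held 2 controls and 3 STAG1 KO libraries. In experiment 4, unedited A673 cells were mock transfected (3 libraries) or received siRNA against STAG2 (siSTAG2, 3 libraries). The isogenic pairs had 1 library per arm, with SK-N-MC iCas9 cells set against their STAG2 KO, and with A4573 iCas9 cells, a line that lacks STAG2, set against A4573 cells in which STAG2 was restored (STAG2 KI). The KO libraries of an arm are different clones, whereas repeat libraries of the WT clone are not, so that the spread among controls may be technical.

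PRC1 is an E3 ubiquitin ligase that places ubiquitin on histone H2A and compacts chromatin. RING1 and RNF2 are the alternative catalytic subunits, and each pairs with a PCGF protein such as BMI1 or PCGF2. In canonical PRC1 a CBX protein (CBX2, CBX6, CBX7 or CBX8) reads the trimethylated lysine of histone H3 that PRC2 writes through its catalytic subunit EZH2 and its core subunit SUZ12, and a PHC protein such as PHC1 polymerizes through its SAM domain and brings distant sites together.

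The members lie on 6 chromosomes of GRCh38 (GENCODE 44). CBX2 (chr17:79778148-79787983, plus strand) and CBX8 (chr17:79792132-79801683, minus strand) are neighbours, CBX6 (chr22:38861422-38872249) and CBX7 (chr22:39120167-39152680) are both on the minus strand of chromosome 22, and PCGF2 (chr17:38733898-38749817, minus strand) shares chromosome 17 with the first pair. BMI1 (chr10:22321099-22331484), RING1 (chr6:33208500-33212722), RNF2 (chr1:185045526-185102603) and PHC1 (chr12:8913896-8941467) are on plus strands. The libraries were not directional, so reads of overlapping genes on opposite strands cannot be told apart. This touched PCGF2, with 48.5% of its exon bases inside the iron-sulphur protein gene CISD3, PHC1 with 18% inside M6PR, and CBX7 with 17.9% inside a lncRNA (ENSG00000279833). BMI1 shares 22.8% of its exon bases with the readthrough gene COMMD3-BMI1 on the same strand.

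Of the 9 members, 7 had a promoter window in RefSeq (GRCh38.p14, 250 bases before to 50 bases after a start), in 9 windows. CBX2 and CBX8 had none in the table used here. The windows are shown for the 3 members with a window that were called against their own controls in the comparisons described later, 5′ to 3′ on the gene's strand, with each CG dinucleotide in capitals. The searched motif is CG, which reads the same on both strands and is held by 96.04% of the 35116 windows of the table (median 14 per window, quartiles 4 and 28). The windows are CBX7 (chr22:39152631-39152930), PCGF2 (chr17:38746579-38746878) and both of PHC1 (chr12:8913593-8913892 and chr12:8914259-8914558).
CBX7: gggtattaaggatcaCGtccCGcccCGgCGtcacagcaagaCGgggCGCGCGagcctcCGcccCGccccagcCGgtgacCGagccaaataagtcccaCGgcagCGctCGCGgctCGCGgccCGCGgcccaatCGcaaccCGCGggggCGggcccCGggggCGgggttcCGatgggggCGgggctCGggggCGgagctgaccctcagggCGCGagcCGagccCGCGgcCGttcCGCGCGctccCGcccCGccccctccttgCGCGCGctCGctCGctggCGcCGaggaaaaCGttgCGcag
PCGF2: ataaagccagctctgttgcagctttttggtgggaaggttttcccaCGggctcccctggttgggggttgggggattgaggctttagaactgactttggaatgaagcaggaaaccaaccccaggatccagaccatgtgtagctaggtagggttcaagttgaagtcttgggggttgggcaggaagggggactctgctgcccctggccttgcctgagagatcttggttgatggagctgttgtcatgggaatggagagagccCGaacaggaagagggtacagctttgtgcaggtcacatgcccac
PHC1, first window: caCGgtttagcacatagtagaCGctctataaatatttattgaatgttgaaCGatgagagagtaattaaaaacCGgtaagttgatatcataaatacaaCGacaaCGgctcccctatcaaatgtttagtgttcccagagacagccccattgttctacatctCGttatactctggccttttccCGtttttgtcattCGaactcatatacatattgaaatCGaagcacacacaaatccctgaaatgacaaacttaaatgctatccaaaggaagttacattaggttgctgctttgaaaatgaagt
PHC1, second window: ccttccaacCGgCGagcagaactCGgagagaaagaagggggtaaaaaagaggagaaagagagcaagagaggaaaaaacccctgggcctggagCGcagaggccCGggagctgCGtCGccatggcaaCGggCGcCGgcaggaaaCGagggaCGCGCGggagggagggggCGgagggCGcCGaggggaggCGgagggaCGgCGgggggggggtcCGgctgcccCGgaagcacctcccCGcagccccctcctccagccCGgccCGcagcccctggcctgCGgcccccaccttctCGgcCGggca
CBX7 held 50 CG, as many as or more than 98.99% of windows. PCGF2 held 2, a count that 18.2% of windows did not exceed. The PCGF2 window lay inside the gene, whose outermost start on the minus strand is at 38749817. No window of the table covered that start, so the count of PCGF2 does not describe it. The PHC1 windows held 10 and 28. Among the members not shown, CBX6 held 47, RING1 and RNF2 held 41 each, and BMI1 held 36 and 65. No methylation or binding was analysed here, and the windows describe the genes only.

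Totals were 15734628 to 20663679 counts in the 22 libraries of A673 clones, 29322507 to 32261248 in the 4 isogenic libraries and 6852340 to 8184632 reads in the 6 knockdown libraries. Of 8 Ewing sarcoma markers, 7 were above 3 counts in every library of the count tables, where CD99 was listed at 0 throughout, and 8 of 8 were measured in the knockdown. Summed levels of 8 markers of blood, epithelium, endothelium and liver were at most 8.79 CPM (counts scaled to library size) in A673 clones and reached 71.5 CPM in the SK-N-MC STAG2 KO library. STAG2 fell in STAG2 KO cells (log2 fold change -1.81, SE 0.32, adjusted p = 0.00424), EZH2 in EZH2 KO (-1.98) and SUZ12 in SUZ12 KO (-1.90), but the STAG2 KO library numbered 24 in experiment 1 still held 183 CPM of STAG2, against 42.2 to 68.9 CPM in the other STAG2 KO libraries and 254.6 to 358.5 CPM in the controls. STAG1 was at 61.1, 14.99 and 33.0 CPM in the libraries labelled STAG1 KO and at 69.1 and 57.4 CPM in their controls, and its difference did not pass the test (log2 fold change -0.80, adjusted p = 0.376). Among replicates, STAG2 KO 5 of experiment 2 stood apart from its group, with a mean chi-square per gene of 112.8 and 140.2 to the other members against 25.7 between these. The WT clone libraries of experiment 1 were close to counting noise apart (1.33, against 9.41 to 140.2 for all other pairs of replicates). Calls in STAG2 KO that rest on these libraries are given with and without them.

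In the controls of the count tables the catalytic subunit RING1 had the highest level per length and the CBX and PCGF paralogs differed widely. Over the 8 control libraries, expressed as CPM per kilobase of merged exon, RING1 was at 27.5 ± 5.34 (SD), CBX6 at 19.5 ± 2.56, CBX2 at 17.5 ± 1.81, RNF2 at 13.1 ± 1.12, PHC1 at 12.7 ± 2.74, PCGF2 at 8.97 ± 0.911, CBX8 at 5.86 ± 0.923, BMI1 at 1.66 ± 0.501 and CBX7 at 0.664 ± 0.384. Neighbours in this order overlapped among the libraries except at PCGF2 over CBX8 and at CBX8 over BMI1, and with the length of the longest transcript CBX2 was also above RNF2 without overlap. The order was the same with either length. The mock libraries of experiment 4 gave another order, with BMI1 (302.1 to 359.4 normalized reads) above PHC1 (54.3 to 59.4). The reason for this was not tested.

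The CBX mixture of controls was narrow in the count tables. CBX6 made up 43.0 to 45.9% of the summed level per kilobase of the 4 CBX genes, CBX2 37.5 to 41.8%, CBX8 12.4 to 14.8% and CBX7 0.380 to 2.47%. In the mock libraries of experiment 4, CBX6 was at 3425 to 3626 normalized reads and CBX2 at 606.3 to 653.4, a different mixture. The ratio of CBX6 to CBX2, chosen after its values were seen and therefore given without a test, was 0.04 to 0.27 on the log2 scale in the 8 controls. It was 0.89, 0.74 and 0.46 in the EZH2 KO libraries, 0.61, 0.60 and 0.69 in the SUZ12 KO libraries, and 1.05, 0.84 and 1.02 in the STAG1 KO libraries. These 9 libraries were all above the controls. In the 5 STAG2 KO libraries it ranged from -0.18 to 0.14, within or below the range of the controls.

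**Figure D1:**
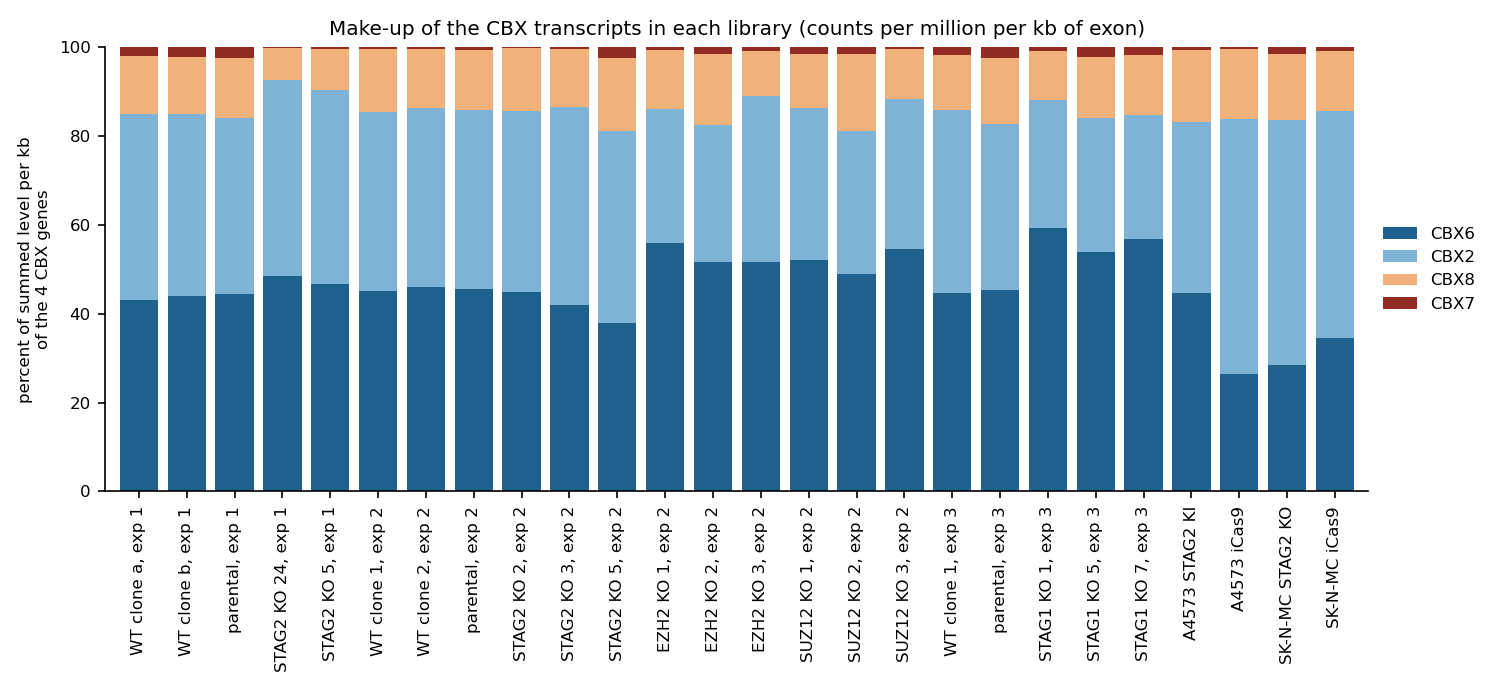
Stacked bars give, for each of the 26 libraries of the count tables, the percent of the summed level (CPM per kilobase of merged exon) of the 4 CBX genes that each gene took. CBX6 takes 43.0 to 45.9% in the 8 controls of A673 and 59.4% in STAG1 KO 1, and CBX2 takes the largest share in the A4573 iCas9 library (57.4%).

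STAG2 KO cells of experiments 1 and 2 were compared with their STAG2-proficient controls in a fit with the experiment as a term (edgeR quasi-likelihood test, Benjamini-Hochberg adjustment over 13574 genes). Of the 9 members, 0 were called at an adjusted p under 0.05, where 12.4% of all genes tested were called in either direction, and with DESeq2 1 was. Their median log2 fold change was 0.07, against 0.04 over all genes tested. BMI1 was nearest to the threshold, and its values differed between the experiments, as did those of CBX2, CBX6 and CBX7. As these are bulk samples, fewer cells of a type and less RNA per cell cannot be told apart here or in any later comparison.

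For BMI1, a PCGF subunit, the controls of experiment 1 were at 7.37, 7.06 and 6.79 CPM and the STAG2 KO libraries at 12.8 and 14.6 CPM. In experiment 2 the controls were at 10.3, 8.93 and 9.20 CPM and STAG2 KO at 10.2, 8.24 and 12.6 CPM. The groups did not overlap in experiment 1 and overlapped in experiment 2. The joint log2 fold change was 0.54 (SE 0.19, adjusted p = 0.0896), with DESeq2 0.53 (adjusted p = 0.0453).

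CBX2, the CBX protein best known for compacting chromatin, was at 88.8, 85.2 and 89.8 CPM in the controls of experiment 1 and at 127.4 and 138.4 CPM in STAG2 KO. In experiment 2 it was at 111.9, 98.0 and 102.0 CPM in controls and at 101.1, 70.2 and 90.3 CPM in STAG2 KO. STAG2 KO libraries were above every control in the first experiment, and overlapped with controls in the second, with 2 of 3 below. CBX6 was at 128.7, 129.2 and 141.7 CPM in controls and at 192.9 and 214.3 CPM in STAG2 KO of experiment 1, and at 175.8, 156.8 and 162.5 CPM in controls and 134.0, 87.0 and 140.3 CPM in STAG2 KO of experiment 2. For this gene, too, every STAG2 KO library of the first experiment was above every control, and in experiment 2 each was below them.

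CBX7 was the member with the fewest reads. It had 95, 112 and 142 counts (5.51, 5.90 and 7.36 CPM) in the controls of experiment 1 and 31 and 12 counts (1.78 and 0.67 CPM) in STAG2 KO. In experiment 2 the controls were at 1.93, 1.21 and 2.16 CPM and STAG2 KO at 1.36, 5.22 and 0.94 CPM. The value of 5.22 CPM belonged to STAG2 KO 5, the library that stood apart.

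Fitted alone, experiment 1 called 4 of the 9 members, where 25.9% of genes were called, and experiment 2 called 0, where 3.69% were. In experiment 1, CBX2 rose by a log2 fold change of 0.60 (SE 0.094, adjusted p = 0.0133), CBX6 by 0.62 (SE 0.10, adjusted p = 0.0158) and BMI1 by 0.96 (SE 0.19, adjusted p = 0.0210), and CBX7 had a log2 fold change of -2.34 (SE 0.47, adjusted p = 0.0224). In experiment 2 the same genes had log2 fold changes of -0.21, -0.41, 0.17 and 0.58, in that order. The difference between the experiments was tested as an interaction. It was -0.79 for CBX2 (SE 0.19, adjusted p = 0.0764), -1.01 for CBX6 (SE 0.23, adjusted p = 0.0755), 2.93 for CBX7 (SE 0.96, adjusted p = 0.0935) and -0.77 for BMI1 (SE 0.30, adjusted p = 0.126), and edgeR called 0 genes of all in it (4150 at an unadjusted p under 0.05), while DESeq2 called 2236, with these 4 members among them.

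The 4 calls of experiment 1 alone changed with the libraries kept, in fits added after the data were seen. With the WT clone libraries summed into 1, 0 members were called by edgeR, where 5.08% of genes were, with adjusted p of 0.0732 for CBX2, 0.0817 for CBX6, 0.106 for BMI1 and 0.0717 for CBX7. Without STAG2 KO 24, CBX2 alone was called (log2 fold change 0.55, adjusted p = 0.0475), where 7.62% of genes were, and CBX6 (0.55), BMI1 (0.87) and CBX7 (-1.80) had adjusted p of 0.0513 to 0.0647. Without STAG2 KO 5 of that experiment the 4 members were called, where 31.4% of genes were. Where 1 KO library was left out, the lone KO library was assumed to vary like the controls. The 4 fold changes kept their direction in each of these fits. In experiment 2 alone without its STAG2 KO 5, 0 members were called by edgeR, where 19.7% of genes were, and CBX7 had -0.56 in place of 0.58.

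Leaving out STAG2 KO 5 of experiment 2, an alternative that changed several calls, raised the genes called by the joint fit from 1687 to 4048. The members called were then 2, BMI1 (log2 fold change 0.65, adjusted p = 0.0139) and CBX7 (-1.44, adjusted p = 0.0259). In the interaction CBX2 (-0.67, adjusted p = 0.0358) and CBX6 (-0.83, adjusted p = 0.0279) were then past the threshold. The summed level of 16 proliferation genes moved in the direction of CBX2 and CBX6, at 4079 to 5235 CPM in controls and 5282 to 5902 CPM in STAG2 KO of experiment 1, and at 6058 to 6529 CPM in controls and 3633 to 5619 CPM in STAG2 KO of experiment 2, and its part in the result was not tested.

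In the joint fit the log2 fold change of CBX7 was -0.61 (adjusted p = 0.646). That of CBX2 was 0.17 (adjusted p = 0.523) and that of CBX6 0.07 (adjusted p = 0.869). The other members did not pass the test either, though CBX8 in STAG2 KO was below every control in each experiment. PHC1 had a log2 fold change of 0.25 (adjusted p = 0.187), RNF2 of 0.23 (adjusted p = 0.229), CBX8 of -0.19 (adjusted p = 0.290), RING1 of -0.10 and PCGF2 of -0.09. The 95% interval of the difference was -0.16 to 0.50 for CBX2 and -0.33 to 0.15 for PCGF2, so that a change of 1 log2 unit lay outside both. For CBX7 it was -2.15 to 0.94, which held a fall of 1 log2 unit. These intervals assume the same effect in both experiments. The log2 fold change of CBX2 in experiment 1 alone, 0.60, lay outside its joint interval.

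**Figure D2:**
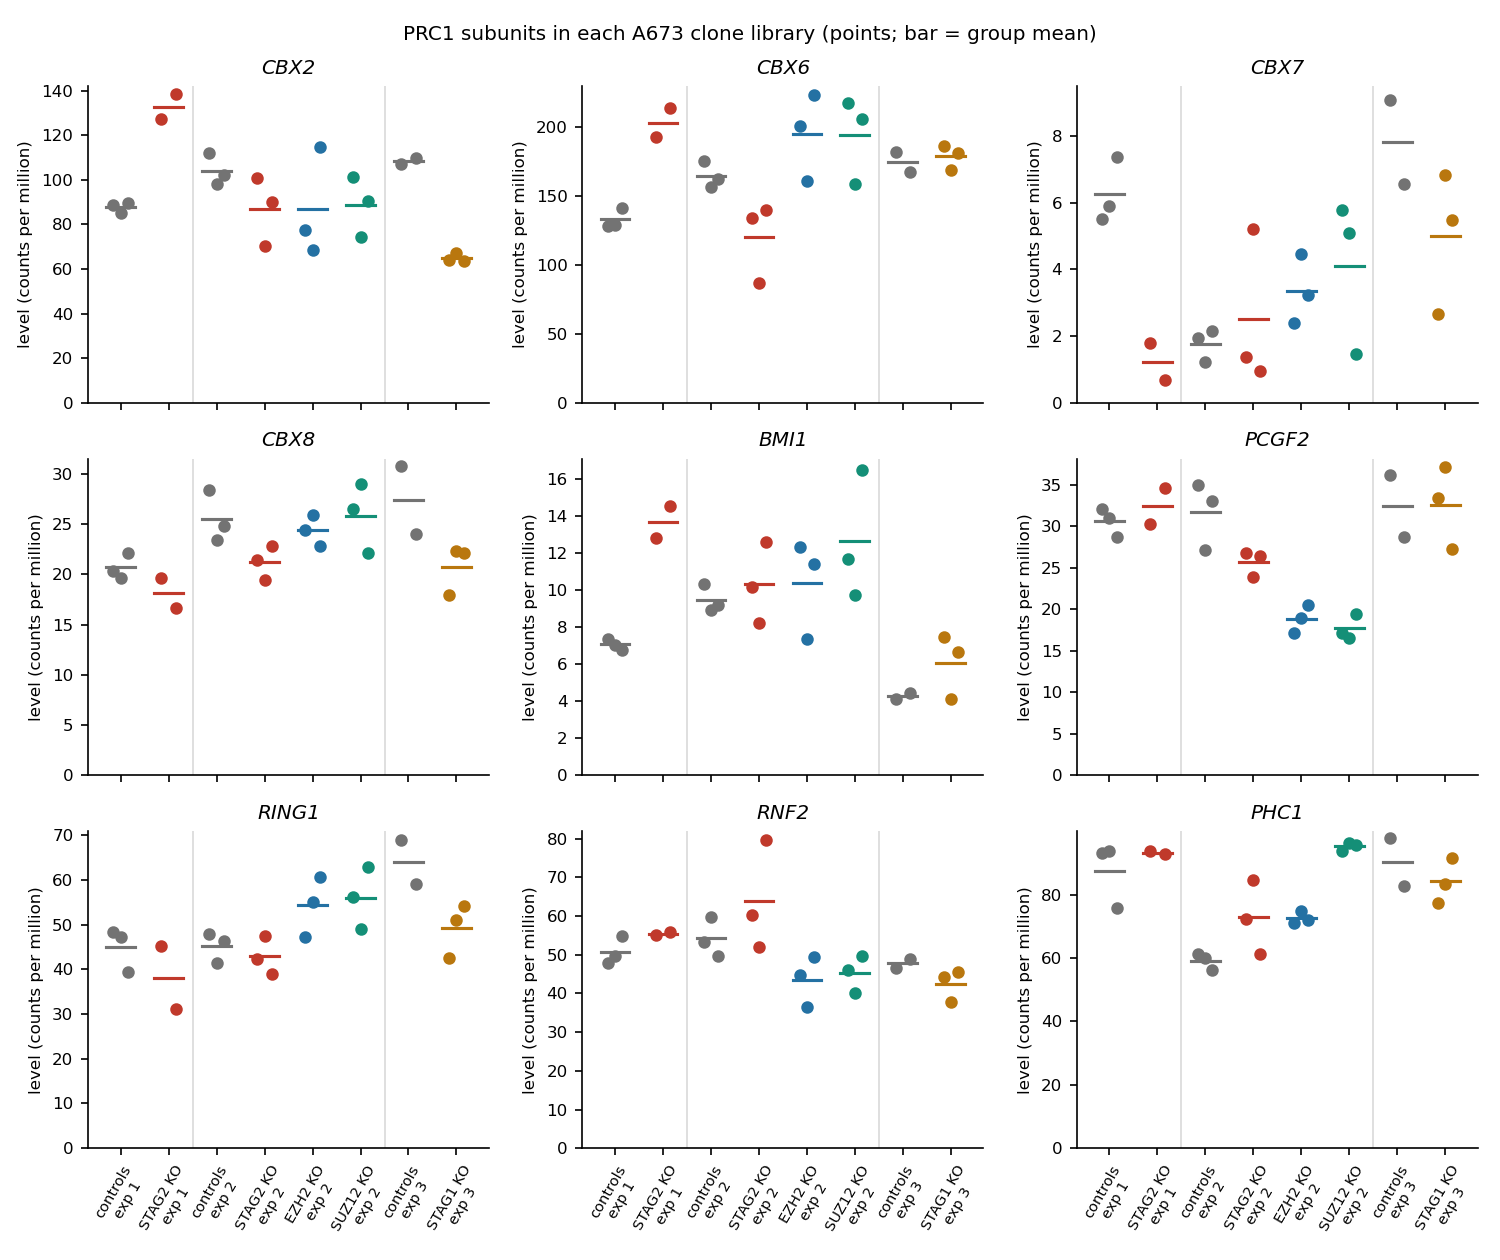
Each panel gives 1 member in CPM in the 22 libraries of A673 clones, with a point per library and a bar at the group mean. PCGF2 is lower in every EZH2 KO and SUZ12 KO library (16.5 to 20.5 CPM) than in every control, and CBX2 is lower in every STAG1 KO library (63.6 to 67.2 CPM) than in its controls.

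**Figure D3:**
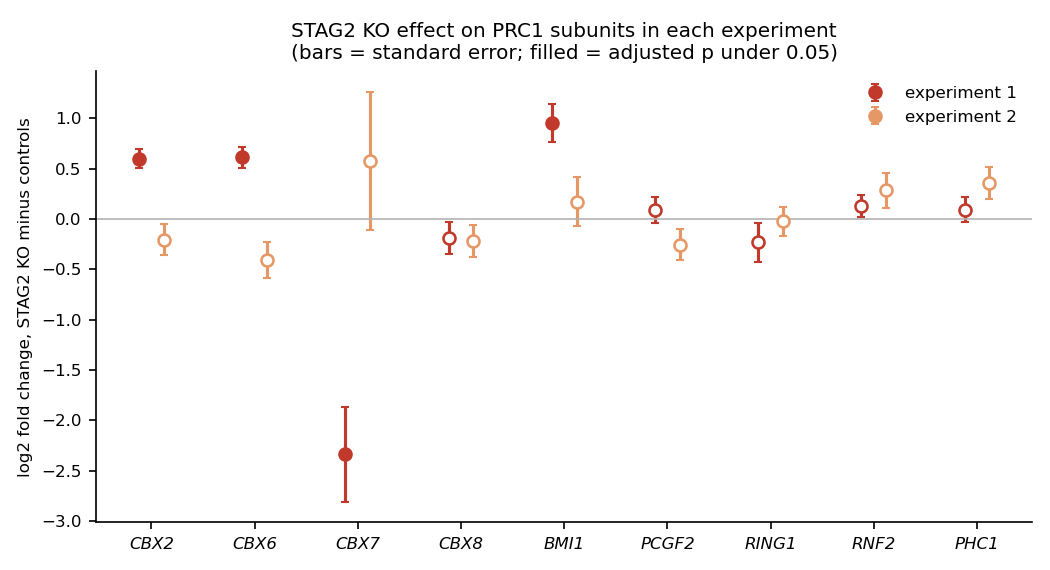
The log2 fold change of each member in STAG2 KO cells with its SE, from experiment 1 alone and from experiment 2 alone. CBX2 (0.60 and -0.21) and CBX6 (0.62 and -0.41) are on opposite sides of 0 in the experiments.

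EZH2 KO and SUZ12 KO cells, which lack a PRC2 subunit, were compared with the 3 controls of experiment 2, which both comparisons share, in a single fit over its 12 libraries. In EZH2 KO cells 1 of the 9 members was called, PCGF2, where 15.7% of 15130 genes were called. In SUZ12 KO cells 2 were called, PCGF2 and PHC1, where 20.6% of genes were. Both shares of the members are close to the background. The median log2 fold change of the members was 0.22 in EZH2 KO and 0.31 in SUZ12 KO, against 0.04 and 0.01 over all genes.

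PCGF2, the paralog of BMI1 that is also known as MEL18, was at 35.0, 27.2 and 33.1 CPM in the controls. It was at 17.1, 18.9 and 20.5 CPM in EZH2 KO and at 17.2, 16.5 and 19.4 CPM in SUZ12 KO. The 6 KO libraries were all below the lowest control. PCGF2 fell by 0.66 on the log2 scale in EZH2 KO (SE 0.15, adjusted p = 0.0128) and by 0.77 in SUZ12 KO (SE 0.15, adjusted p = 0.00429). The call in EZH2 KO was lost without WT clone 1 (adjusted p = 0.0607) or without EZH2 KO 1 (adjusted p = 0.0536), and that in SUZ12 KO was kept in each alternative run. The gene on the other strand, CISD3, did not pass the test (0.61 in EZH2 KO, adjusted p = 0.171, and 0.55 in SUZ12 KO, adjusted p = 0.197). Its EZH2 KO libraries were all above the controls, and its SUZ12 KO libraries overlapped with them. The part of CISD3 in the fall of PCGF2 was not tested.

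BMI1 did not pass the test, with log2 fold changes of 0.22 in EZH2 KO (adjusted p = 0.619) and 0.49 in SUZ12 KO (adjusted p = 0.229). The ratio of PCGF2 to BMI1, a description chosen after its values were seen, was 0.80 to 1.68 on the log2 scale of levels per kilobase in EZH2 KO and 0.56 to 1.09 in SUZ12 KO, below the 1.93 to 3.46 of the 8 controls. The 5 STAG2 KO libraries, at 1.39 to 1.86, were also below the controls and overlapped with EZH2 KO, and the STAG1 KO libraries, at 2.36 to 3.49, overlapped with the controls.

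PHC1, the polyhomeotic subunit, was at 61.2, 60.1 and 56.3 CPM in the controls, at 71.2, 74.9 and 72.0 CPM in EZH2 KO and at 93.8, 96.4 and 95.8 CPM in SUZ12 KO. The 3 groups did not overlap. PHC1 rose in SUZ12 KO by a log2 fold change of 0.76 (SE 0.13, adjusted p = 0.00164), in each alternative run. In EZH2 KO its log2 fold change was 0.38 (SE 0.13, adjusted p = 0.0619), past the threshold with DESeq2 (0.0306) or with only these groups in the fit (0.0299). Its overlapping gene M6PR had log2 fold changes of -0.04 and -0.13 and did not pass the test. The part of M6PR in the values of PHC1 was not tested. The controls of experiments 1 and 3 were at 75.9 to 97.9 CPM of PHC1, so that the level in SUZ12 KO lay within the range of controls of the other experiments.

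For RING1, EZH2 KO was at 47.2, 55.1 and 60.6 CPM, SUZ12 KO at 56.1, 49.1 and 62.8 CPM and the controls at 48.0, 41.3 and 46.4 CPM. SUZ12 KO libraries were all above the controls, and EZH2 KO libraries overlapped with them. The log2 fold change was 0.35 (adjusted p = 0.125) in EZH2 KO and 0.38 (adjusted p = 0.0850) in SUZ12 KO, where DESeq2 gave 0.38 (adjusted p = 0.0488). RNF2, its paralog, was at 53.4, 59.8 and 49.6 CPM in the controls, at 44.7, 36.4 and 49.3 CPM in EZH2 KO and at 46.2, 40.1 and 49.6 CPM in SUZ12 KO, with log2 fold changes of -0.23 (adjusted p = 0.374) and -0.19 (adjusted p = 0.453).

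Of the CBX genes none was called in either KO with edgeR, which gave an adjusted p of at least 0.199 for each. CBX6 was at 201.3, 160.9 and 223.3 CPM in EZH2 KO and at 218.1, 159.1 and 206.3 CPM in SUZ12 KO, and its log2 fold changes against controls were 0.33 and 0.31. CBX2 had -0.17 and -0.16, and CBX8 0.02 and 0.09. CBX7 had the widest error, with 1.01 (SE 0.66) and 1.28 (SE 0.66). Its SUZ12 KO libraries held 119, 113 and 27 counts, the last of these inside the range of 19 to 39 counts of the controls.

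SUZ12 KO was set against EZH2 KO in the same fit. Of the 9 members 0 were called, where 0.00661% of genes, EZH2 alone, were called (629 at an unadjusted p under 0.05, and 22 with DESeq2). PHC1 was first among the members by p, with a log2 difference of 0.38 (SE 0.13, 95% interval 0.10 to 0.65, adjusted p = 0.999 by edgeR). The interval was -0.44 to 0.22 for PCGF2, -0.43 to 0.39 for CBX6 and -0.41 to 0.44 for CBX2.

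Of the 8 Ewing sarcoma markers 7 were tested, and 3 of them (NKX2-2, PRKCB and PAX7) rose in EZH2 KO and in SUZ12 KO, where LIPI fell (-1.15). The list summed to 1359 to 1583 CPM in EZH2 KO and 1424 to 1497 CPM in SUZ12 KO, against 787 to 932 CPM in the controls. The 8 markers of other cell types summed to 2.71 to 3.40 CPM in EZH2 KO and 3.44 to 8.79 CPM in SUZ12 KO, against 0.942 to 1.47 CPM in controls, with 2 to 5 and 3 to 6 of them above 3 counts, against 2 in the controls. The 16 proliferation genes summed to 4109 to 5321 CPM in EZH2 KO and 4350 to 5735 CPM in SUZ12 KO, below the 6058 to 6529 CPM of the controls. The part of these lists in the results for PCGF2 and PHC1 was not tested.

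**Figure D4:**
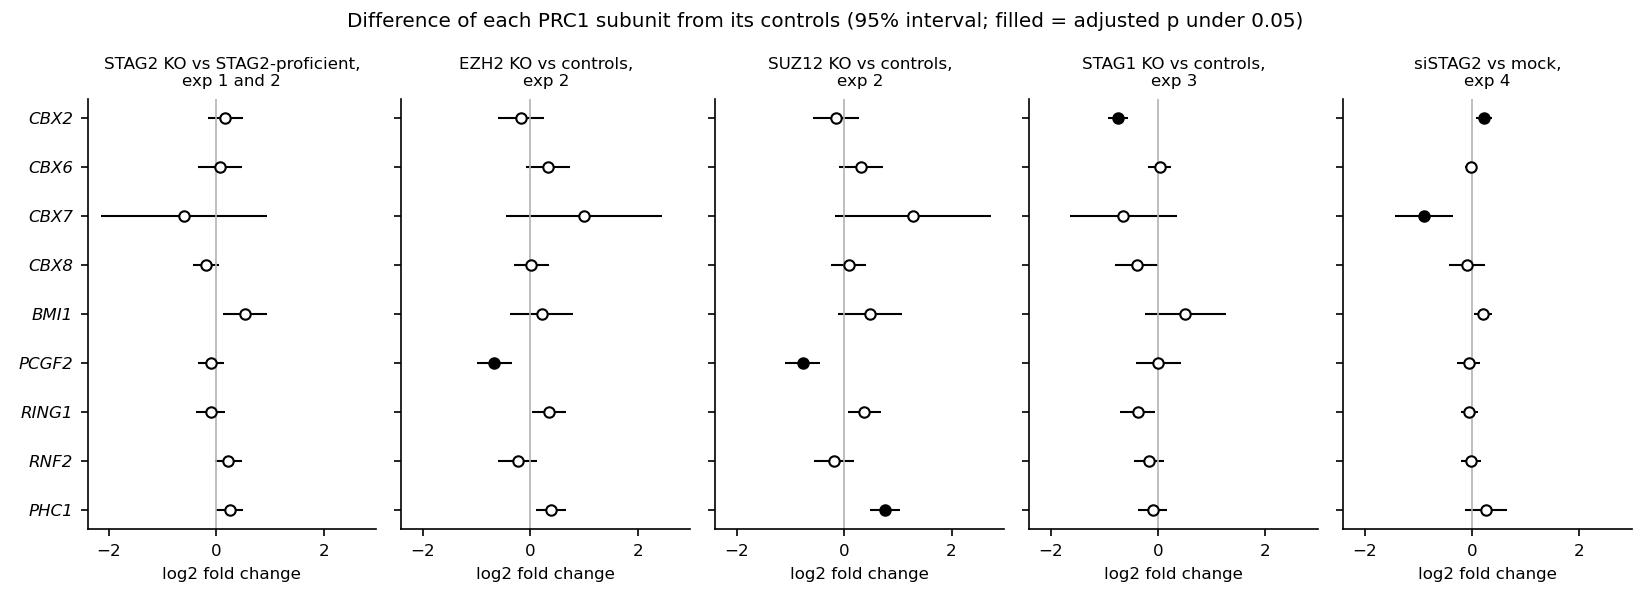
Log2 fold changes of the 9 members with 95% intervals in 5 comparisons with their own controls, with filled points at an adjusted p under 0.05. PCGF2 is filled in the EZH2 KO and SUZ12 KO panels (-0.66 and -0.77), PHC1 in the SUZ12 KO panel (0.76), CBX2 in the STAG1 KO panel (-0.74), and CBX2 and CBX7 in the siSTAG2 panel (0.22 and -0.89).

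Loss of PRC2 was also set against loss of STAG2 within experiment 2. Against STAG2 KO, EZH2 KO cells had 2 of 9 members called, where 20.4% of genes were, and SUZ12 KO cells 3, where 25.8% were. CBX6 was higher in both, by log2 differences of 0.72 (SE 0.19, adjusted p = 0.0189) and 0.70 (SE 0.19, adjusted p = 0.0181). Its 6 PRC2 KO libraries were all above the 3 STAG2 KO libraries. Against the controls, CBX6 was not called in EZH2 KO (0.33) or in SUZ12 KO (0.31). In STAG2 KO it had -0.41 in experiment 2 alone but 0.62 in experiment 1 alone. RNF2 was at 60.1, 52.1 and 79.7 CPM in STAG2 KO and was lower in EZH2 KO (-0.53, SE 0.17, adjusted p = 0.0432, but 0.0597 without the filter on low counts). In SUZ12 KO its difference was -0.49 (adjusted p = 0.0512).

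SUZ12 KO cells also had less PCGF2 than STAG2 KO cells (-0.53, SE 0.15, adjusted p = 0.0249) and more PHC1 (0.39, SE 0.13, adjusted p = 0.0401, but 0.0780 without the filter on low counts). The PCGF2 difference of EZH2 KO was -0.42 (adjusted p = 0.0714). CISD3, on the strand opposite PCGF2, was called higher than in STAG2 KO both in EZH2 KO (1.09, SE 0.28, adjusted p = 0.0193) and in SUZ12 KO (1.03). Its part in the PCGF2 differences was not tested. Without STAG2 KO 5, 4 members were called in EZH2 KO against STAG2 KO (CBX6 and RING1 higher, PCGF2 and RNF2 lower) and 6 in SUZ12 KO (CBX6, CBX7, RING1 and PHC1 higher, PCGF2 and RNF2 lower), and the genes called in all rose from 3091 to 5285 and from 3899 to 6198.

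STAG1 is the paralog of STAG2, and a cohesin complex carries 1 or the other. In the libraries labelled STAG1 KO, 1 of 9 members was called against the 2 controls of experiment 3, CBX2, where 5.27% of 14373 genes were called. CBX2 was at 107.2 and 109.9 CPM in the controls and at 64.0, 67.2 and 63.6 CPM in STAG1 KO. The groups were far apart relative to their spread. CBX2 fell by 0.74 on the log2 scale (SE 0.079, adjusted p = 0.020). Without the parental control its adjusted p was 0.236 and without the WT clone 0.134, fits in which 0 genes of all were called by edgeR and a lone control library was assumed to vary like the KO libraries. The fold change was -0.77 and -0.72 in these fits. STAG1 KO 1, in which STAG1 was at 61.1 CPM, was as low in CBX2 as the others, and without it the log2 fold change was -0.72 (adjusted p = 0.0166).

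The other members did not pass the test in STAG1 KO. CBX8, the neighbour of CBX2, was at 30.8 and 24.02 CPM in controls and at 17.9, 22.3 and 22.1 CPM in STAG1 KO (log2 fold change -0.40, adjusted p = 0.204), and RING1 was at 68.9 and 59.0 CPM in controls and at 42.6, 50.9 and 54.2 CPM (-0.38, adjusted p = 0.149). CBX6 had a log2 fold change of 0.03 (SE 0.087) and PCGF2 of 0.01. The median of the members was -0.17, against 0.00 over all genes.

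The effect of STAG2 KO minus that of STAG1 KO was fitted over experiments 1 to 3. Of the members 0 were called, where 6.11% of genes were. For CBX2 the difference was 0.87 (SE 0.25, adjusted p = 0.0558), past the threshold with DESeq2 (0.88, adjusted p = 0.0210) and without STAG2 KO 5 (0.98, adjusted p = 0.00716). The differences were 0.36 for RNF2 (adjusted p = 0.324) and 0.31 for PHC1 (adjusted p = 0.374).

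After knockdown of STAG2 with siRNA, 2 of 9 members were called, CBX2 and CBX7, where 20.5% of 12060 genes were (limma on log2(normalized reads + 1), mean value of at least 10). STAG2 was at 1068, 992 and 1090 normalized reads in mock cells and at 144.2, 179.9 and 152.6 in siSTAG2 cells. CBX2 was at 612.9, 653.4 and 606.3 normalized reads in mock cells and at 690.1, 738.0 and 757.4 in siSTAG2 cells. CBX7 was at 33.4, 38.4 and 26.0 and at 17.8, 14.8 and 18.4. Neither gene overlapped between the groups.

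CBX2 rose by 0.22 (SE 0.069, adjusted p = 0.0218) and CBX7 fell by 0.89 (SE 0.26, adjusted p = 0.0158) on the log2(value + 1) scale, which understates the change of a low gene. CBX7 rested on 16 to 39 reads per library, and its call was lost without mock 1 (adjusted p = 0.0557), mock 2 (0.0774) or siSTAG2 2 (0.0604). The call of CBX2 was lost without mock 1 (adjusted p = 0.0755), mock 3 (0.0785), siSTAG2 2 (0.0842) or siSTAG2 3 (0.11). With the recovered reads, tested with edgeR, CBX7 had -0.95 (adjusted p = 0.0121). Of 16 proliferation genes 4 were called, all lower, and their sum was 34521 to 34675 normalized reads in mock cells and 32420 to 33347 in siSTAG2 cells. Of the 8 Ewing sarcoma markers 6 were called, 2 higher and 4 lower, with sums of 13087 to 13892 in mock cells and 10354 to 10855 in siSTAG2 cells. The part of either list in the results for CBX2 and CBX7 was not tested.

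BMI1 was at 324.1, 302.1 and 359.4 normalized reads in mock cells and at 381.7, 389.4 and 364.2 in siSTAG2 cells, without overlap (0.21, SE 0.085, adjusted p = 0.0853). PHC1 was at 54.3, 59.0 and 59.4 and at 87.6, 78.8 and 48.3, so that 1 siSTAG2 library was below all mock libraries (0.27, adjusted p = 0.364). CBX6, CBX8, PCGF2, RING1 and RNF2 had log2 fold changes of -0.10 to -0.02 with overlapping groups. The median over the members was -0.03, against 0.01 over all genes tested. Apart from the order and mixture of members in mock cells given above, levels of the knockdown were not set against those of the clones, since the tables were scaled separately.

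**Figure D5:**
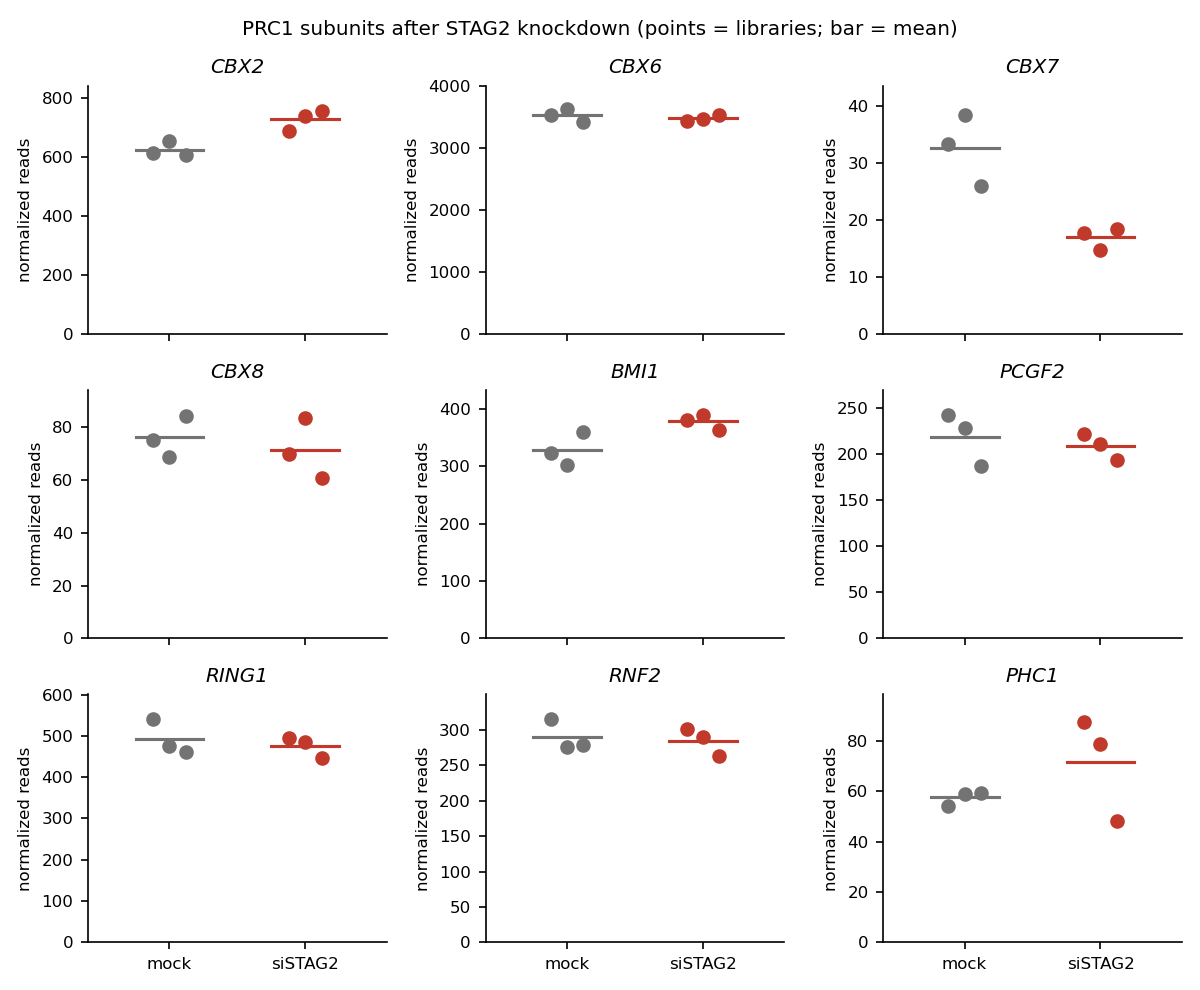
Each panel gives 1 member in normalized reads in the 3 mock and 3 siSTAG2 libraries of A673, with a point per library and a bar at the mean. CBX7 is at 26.0 to 38.4 in mock and 14.8 to 18.4 in siSTAG2 cells, and the siSTAG2 points of CBX2 (690.1 to 757.4) are all above those of mock (606.3 to 653.4).

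In the isogenic pairs, with 1 library per arm, there is no replicate check and no test. STAG2 transcript itself had a log2 ratio, without to with STAG2, of -1.35 in A4573 and of only -0.67 in SK-N-MC. As log2 ratios of the library without STAG2 to that with STAG2, with 95% intervals of counting error only, 1 member was past 1 in A4573, where 21.8% of genes were, and 0 in SK-N-MC, where 21.6% were. CBX2 was at 264.6 CPM in A4573 iCas9 cells and at 124.3 CPM in the STAG2 KI, a log2 ratio of 1.09 (1.03 to 1.15). Scaled by library size only, its ratio was 1.01, outside that interval. In SK-N-MC it was at 167.8 CPM in the STAG2 KO and at 167.6 CPM in iCas9 cells, a log2 ratio of 0.00 (-0.05 to 0.06). The proliferation genes summed to 6715 CPM without and 2645 CPM with STAG2 in A4573, in the direction of CBX2, and to 4647 and 5304 CPM in SK-N-MC. The Ewing sarcoma markers summed to 708 CPM without and 1041 CPM with STAG2 in A4573, and to 755 and 934 CPM in SK-N-MC. The part of these lists in the ratios was not tested.

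Among the other CBX genes, CBX6 was lower without STAG2 in both pairs (172.5 against 203.3 CPM in A4573 and 122.5 against 159.5 CPM in SK-N-MC), and CBX7 was low in all 4 libraries (2.49 against 2.96 CPM and 5.99 against 4.10 CPM). CBX8 had log2 ratios of 0.48 in A4573 and 0.04 in SK-N-MC. PHC1 was at 129.7 CPM without and 185.8 CPM with STAG2 in A4573, and at 114.9 CPM without and 90.2 CPM with STAG2 in SK-N-MC, so that it differed in direction between the lines. In A4573 the log2 ratios of CBX6 and PHC1 were -0.24 and -0.52, and -0.32 and -0.60 when scaled by library size only. BMI1 had log2 ratios of 0.43 (0.12 to 0.75) and -0.33 (-0.61 to -0.04), PCGF2 of 0.46 and 0.01, RNF2 of 0.27 and -0.45, and RING1 of 0.06 and -0.24. The SK-N-MC STAG2 KO library held 1776 counts of the leukocyte gene PTPRC, and the part of that library's other cell type markers in these ratios was not tested.

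The WT clone was set against the parental line over experiments 1 to 3 to see how far the controls differ. Of the members 0 were called, where 2.72% of 14167 genes were. The log2 differences of 8 members were -0.14 to 0.07. CBX7 had -0.43 (SE 0.18, adjusted p = 0.270). CBX2 had 0.00 (95% interval -0.17 to 0.17). These are controls that share an origin but not a genotype, and the differences of CBX2 and PCGF2 called above were larger than those of the same genes between the controls.

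The remaining PRC1 genes were counted from a list of 28, with canonical paralogs and the partners of variant PRC1. PCGF5, a PCGF subunit of variant PRC1, rose in EZH2 KO (log2 fold change 1.41, SE 0.19, adjusted p = 0.000714), in SUZ12 KO (1.43, SE 0.19, adjusted p = 0.000443) and in STAG1 KO (0.999, SE 0.18, adjusted p = 0.0411). In EZH2 KO 2 genes of the list rose (PCGF5 and SCML1 at 0.99) and 2 fell (L3MBTL2 at -0.94 and CSNK2A1 at -0.38). In SUZ12 KO 3 rose (PCGF5, SCML1 at 1.02 and RYBP, the subunit that takes the place of CBX in variant PRC1, at 0.63) and 2 fell (L3MBTL2 at -0.81 and SKP1 at -0.46). The shares of the list called, 14.3% and 17.9%, were below the 15.7% and 20.6% of all genes.

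In STAG2 KO 2 of the 28 rose, AUTS2, a partner of variant PRC1 with PCGF3 or PCGF5, at 0.58 (SE 0.12, adjusted p = 0.00923) and PHC3 at 0.35 (adjusted p = 0.0495), and 0 fell, a share of 7.14% against 12.4% of all genes. In STAG1 KO 2 rose (PCGF5 and SKP1 at 0.39) and 2 fell (FBRSL1 and SCMH1, both at -0.65), 14.3% of the list against 5.27% of all genes. After siSTAG2 6 rose (21.4%, where 9.54% of all genes rose and 20.5% were called in either direction), led by AUTS2 at 0.50, E2F6 at 0.39, MAX at 0.30 and PCGF3 at 0.27. Of 15 genes of H2A deubiquitination, the reaction that opposes PRC1, 14 were tested and none of the BAP1 and ASXL genes was called by edgeR or limma in any comparison. Against controls FOXK2 fell in STAG1 KO (-0.42) and 0 of the 14 were called in STAG2, EZH2 and SUZ12 KO and siSTAG2. Against STAG2 KO, 2 of the 14 were called in EZH2 KO (14.3%, where 20.4% of all genes were). In SUZ12 KO 3 were (21.4%, where 25.8% of all genes were).

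Across the 22 A673 clone libraries, which share experiments, controls and depth differences, the members did not move as a set. The pairs with the strongest Pearson correlations of log2 CPM, centred within each experiment, were CBX7 with BMI1 (r = -0.70), PCGF2 with PHC1 (-0.65), CBX6 with BMI1 (0.62) and CBX7 with RING1 (0.61), while RING1 and RNF2 had -0.44 and BMI1 and PCGF2 -0.14. Of 11039 genes, those most like a member were ZNF92 for RNF2 (r = 0.95), LHPP for CBX7 (0.93), CIZ1 for PCGF2 (0.92), GIGYF1 for CBX2 and C15orf39 for CBX6 (0.89 each), DGAT2 for PHC1 (0.87), SPRED2 for BMI1 and PSD for RING1 (0.86 each) and NME3 for CBX8 (0.81).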

How the data were processed

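RNA was measured in 32 libraries. Per the labels and methods, the authors sequenced 86-nt single reads of oligo-dT cDNA from non-directional libraries and aligned them to hg38 with TopHat2 (2.0.0). The same notes name Bowtie (version 0.12.7) together with SAMtools (version 0.1.16), and up to 2 mismatches and 5 multi-hits were permitted. For the clones and pairs they deposited raw counts of reads per gene symbol. The program and annotation used for counting are not given in the sources used here. For the knockdown they deposited a signal, read counts divided by 1 factor per library, and 100% of values gave whole reads (tolerance 0.01). No column of sample values was left out.

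Counts were scaled by TMM and tested in R 4.3.3 with edgeR 4.0.16 (filterByExpr, quasi-likelihood test). The knockdown was tested with limma 3.58.1 (trend) on log2(value + 1). P-values were adjusted over all features, with a threshold of 0.05, and a call is a result under it. In the pairs, log2 ratios used a prior count of 2 and genes with at least 10 counts. DESeq2 1.42.0, no filter, each experiment alone, the WT clone alone, other minimums and pseudocounts, recovered reads (2503 genes called with edgeR), a replicate block and leaving out each library were alternatives. Summing the WT clone libraries of experiment 1, leaving out STAG2 KO 5 from comparisons other than that of STAG2 KO with its controls, and leaving out STAG2 KO libraries within an experiment fitted alone were chosen after seeing the data. The fits were tested on simulated data. Intervals of the pairs cover counting error only. At these depths 3 counts in a library are taken as the floor.

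STAG2 KO libraries of experiment 1 (numbered 5 and 24 in the table) and STAG1 KO libraries (1, 5 and 7) could be assigned to a genotype but not to a clone of the labels. All members, the edited genes, and up to 4 called genes in each direction from each list of related genes were named. One gene of the list of remaining PRC1 genes is not reported here, and the counts of that list leave it out. The members and lists were chosen with earlier results of these data known. Coordinates are from GENCODE 44 on GRCh38.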

Additional observations from a re-analysis of the deposited data

Results flagged for a closer look

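CBX7 was at 5.22 CPM in STAG2 KO 5 of experiment 2, while the other 4 STAG2 KO libraries of experiments 1 and 2 were at 0.675 to 1.78 CPM. Its gap to the nearest library exceeded the critical value of Dixon's test for 5 libraries, which chance exceeds in about 1 in 20 groups, and 27 combinations of a member and a group were examined. This is the library that stood farthest from its group over all genes.

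CBX6 had a mean of 203.6 CPM in STAG2 KO of experiment 1, with both libraries above every control, and a mean of 120.4 CPM in STAG2 KO of experiment 2, with every library below every control. The difference between the effects was -1.01 on the log2 scale (SE 0.23, adjusted p = 0.0755 with edgeR and 0.00465 with DESeq2).

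CBX2 had a mean of 132.9 CPM in STAG2 KO of experiment 1, with both libraries above every control, and every STAG1 KO library was below its controls. The effect of STAG2 KO over experiments 1 and 2 minus that of STAG1 KO was 0.87 on the log2 scale (SE 0.25, adjusted p = 0.0558 with edgeR and 0.0210 with DESeq2). RNF2 showed the same arrangement, with a mean of 55.4 CPM in STAG2 KO of experiment 1 and STAG1 KO libraries at 37.7 to 45.4 CPM. Its change in STAG2 KO of experiment 1 alone was small (log2 fold change 0.13, SE 0.11, adjusted p = 0.390 with edgeR). For RNF2 the effect of STAG2 KO minus that of STAG1 KO did not pass the test with edgeR (0.36, SE 0.19, adjusted p = 0.324). The share of all genes with such an arrangement was not counted. The differences between STAG2 KO of experiment 1 alone and STAG1 KO were not tested.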

How the results depend on the processing

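Across the alternatives, PCGF2 and PHC1 in SUZ12 KO kept their calls in each one run. Outside the fits that left out a named library, 318 member fold changes kept direction and side of the threshold. A further 16 gained a call, 2 lost a call and 13 turned sign. These settings were not all run on every library, since some kept a single experiment or dropped the parental line.

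The count of members called became 1 with DESeq2 and 4 with experiment 1 alone in STAG2 KO (main 0, and in that experiment 1 without STAG2 KO 24, 4 without STAG2 KO 5 and 0 with the WT clone pair summed), 2 with DESeq2 or only the 2 groups compared in EZH2 KO (main 1), 3 with DESeq2 in SUZ12 KO (main 2), 3 with DESeq2 and 1 without the filter on low counts in EZH2 against STAG2 KO (main 2), 5 with DESeq2 and 2 without the filter in SUZ12 against STAG2 KO (main 3), 1 with DESeq2 in the STAG2 minus STAG1 effect and 4 in the difference between experiments (main 0 for both), and 1 after siSTAG2 with a mean of at least 50, which drops CBX7. Leaving out a library gave 0 to 2 in STAG2 KO, 0 to 1 in EZH2 KO, 0 to 1 in STAG1 KO and 0 to 2 after siSTAG2. Without STAG2 KO 5 it was 4 for EZH2 and 6 for SUZ12 against STAG2 KO, 1 for STAG2 minus STAG1 and 2 for the difference between experiments.

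Signs turned in members that were not called in the main fits, and the cause was not tested. In STAG2 KO, PCGF2 was 0.087 with experiment 1 alone, 0.19 there without STAG2 KO 5 and 0.095 there with the WT clone pair summed, and RING1 was 0.023 there without STAG2 KO 24. With experiment 2 alone CBX2 was -0.21, CBX6 -0.41 and CBX7 0.58, and without STAG2 KO 5 CBX2 was -0.066 and CBX6 -0.21. CBX8 in EZH2 KO was -0.0038 with DESeq2 and -0.017 with the WT clone as the only control, and CBX6 in SUZ12 against EZH2 KO was 0.0075 with DESeq2. When the WT clone pair of experiment 1 was added up into 1 library, CBX7 was 0.023 in STAG2 minus STAG1, CBX8 0.021 between experiments, and CBX2 0.0047 and RING1 -0.014 between WT clone and parental, where DESeq2 gave CBX2 0.0013.

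Leaving out a library, ranges that cross 0 were -0.057 to 0.22 for CBX6 and -0.18 to 0.0035 for RING1 in STAG2 KO, -0.063 to 0.077 for CBX8 in EZH2 KO and -0.0011 to 0.17 for CBX8 in SUZ12 KO. In SUZ12 against EZH2 KO they were -0.12 to 0.26 (CBX2), -0.13 to 0.11 (CBX6), -0.054 to 0.68 (CBX7), -0.022 to 0.17 (CBX8), -0.067 to 0.12 (RING1) and -0.062 to 0.14 (RNF2). In STAG1 KO they were -0.016 to 0.084 (CBX6), -0.14 to 0.18 (PCGF2) and -0.21 to 0.016 (PHC1). Between WT clone and parental they were -0.030 to 0.036 (CBX2), -0.20 to 0.0021 (PCGF2), -0.13 to 0.089 (RING1), -0.062 to 0.13 (RNF2) and -0.053 to 0.18 (PHC1), and after siSTAG2 -0.040 to 0.0015 (CBX6), -0.22 to 0.0083 (CBX8), -0.17 to 0.013 (PCGF2), -0.094 to 0.021 (RING1) and -0.066 to 0.037 (RNF2). Without STAG2 KO 5, EZH2 against STAG2 KO gave CBX2 -0.11 and BMI1 -0.10, SUZ12 against STAG2 KO gave CBX2 -0.094, STAG2 minus STAG1 gave CBX6 0.14 and BMI1 0.10, and the difference between experiments gave CBX8 0.031.

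The genes called in all with DESeq2 were 2616 in STAG2 KO (main 1687), 1935 in STAG1 KO (757), 1536 for STAG2 minus STAG1 (898) and 631 between WT clone and parental (385, and 741 without the filter). In EZH2 KO the WT clone as the only control gave 1441 (main 2377).

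Replicate numbers of mock and siSTAG2 libraries did not pair them, with correlations of 0.026, 0.037 and 0.0040 for the same number. With the number as a block, 2 members and 2881 genes were called (main 2 and 2476). CBX7, with 12 to 187 counts per A673 library of the count tables, is the member whose depth limits it most.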
